A study of Bos taurus with 12 samples.

Results

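The small RNAs described here are bovine miR-221 and miR-222, the miR-181 family (miR-181a, miR-181b, miR-181c and miR-181d), miR-146a, miR-146b and miR-155. They were taken by name: every name in the deposited miRNA table that carries one of these numbers was included, whatever its arm or species prefix, and each name counted once. This gave 23 of 1330 names, of which miR-181a held 5, miR-181b 4, miR-222 3, and miR-146a, miR-146b, miR-155, miR-181c and miR-221 held 2 each, with 1 for miR-181d. The cells were preadipocytes, the precursors of fat cells, taken from longissimus dorsi of Qinchuan calves at birth and driven towards fat cells in culture. The 12 libraries come from cells before induction (0 d) or on day 3, 6 or 9 of it (3 d, 6 d, 9 d), 3 from each. Induction began at 90% confluence and lasted 2 days in IBMX, dexamethasone and insulin, and insulin alone followed, so that the 3, 6 and 9 d cells had all received the 3 agents and had then been kept in insulin. IBMX was at 0.5 mM. Insulin was at 5 µg/mL and dexamethasone at 1 g/mL according to the labels, and the methods of the study give 2 µM and 1 µM. No uninduced cells were kept to 3, 6 or 9 d among these libraries, so time in culture and induction cannot be told apart. The study describes the 3 libraries of a day as biological replicates. The labels do not say whether they came from separate cultures, and p-values measure the spread between these libraries.

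A miRNA is cut from a hairpin in a longer transcript, and either arm of the hairpin (5p or 3p) can be loaded into an Argonaute protein, where the seed at its 5′ end pairs with target mRNAs and lowers their translation or stability. miR-221 and miR-222 are known for restraining cell cycle inhibitors and are described in adipose tissue and blood vessels, while miR-146 and miR-155 are known as miRNAs induced by NF-κB signalling that in turn act on its adaptors and on immune regulators. The miR-181 family is known from lymphocyte development, muscle differentiation and lipid metabolism.

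The sequences below are those that the results turn on, as the miRNA table gives them, 5′ to 3′, with the seed (bases 2 to 8) in capitals. A suffix with L or R tells how many bases a sequence is longer or shorter than its reference at the 5′ or 3′ end, and ss marks a substitution. miR-222 and miR-221 share 1 seed.
bta-miR-222_R+4: aGCTACATctggctactgggtctct
bta-miR-221_R+1: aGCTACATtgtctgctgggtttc
The 5p arms of the miR-181 family share another, which 9 of the 23 names carry.
bta-miR-181a_R+1: aACATTCAacgctgtcggtgagttt
bta-miR-181b: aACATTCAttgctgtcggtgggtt
bta-miR-181c: aACATTCAacctgtcggtgagttt
bta-miR-181d_R+1: aACATTCAttgttgtcggtgggtt
The 3p arms tell the hairpins of this family apart, which the 5p arm of miR-181a does not.
hsa-miR-181a-3p: aCCATCGAccgttgattgtacc
hsa-miR-181a-2-3p_1ss6TC: aCCACCGAccgttgactgtacc
chi-miR-181c-3p: aCCATCGAccgttgagtggacc
miR-146a and miR-146b have a seed in common, and miR-155 has its own.
bta-miR-146b: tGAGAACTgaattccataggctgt
bta-miR-146a_R-2_1ss18AG: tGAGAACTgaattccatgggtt
bta-miR-155_R+1: tTAATGCTaatcgtgataggggtt
Counted from 1 at the 5′ end, miR-181b and miR-181d were identical at 23 of 24 bases and differed by C12T (the base of miR-181b first). miR-181a and miR-181b were identical at 21 of 24, with A9T, C10T and A21G. miR-221 and miR-222 were identical at 11 of the 23 bases compared, the seed among them. Bases were compared position by position with no gap. With a gap in miR-221 right after the shared 5′ stretch more bases match, so this count understates their likeness.

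The hairpins lie in pairs on the bovine genome (ARS-UCD1.2). Those of miR-222 (chrX:98125920-98126030) and miR-221 (chrX:98126615-98126724) lie on the plus strand with 584 bases between them. miR-181a-2 (chr11:95708973-95709082) and a hairpin of miR-181b (chr11:95710188-95710276) lie 1105 bases apart on the plus strand. On the minus strand, miR-181a-1 (chr16:77762836-77762945) and the other miR-181b hairpin (chr16:77762664-77762773) are 62 bases apart, and miR-181c (chr7:11811457-11811553) and miR-181d (chr7:11811274-11811387) are 69 apart. miR-155 (chr1:10848632-10848730, minus strand), miR-146a (chr7:72071548-72071646, plus strand) and miR-146b (chr26:23057605-23057713, plus strand) stand alone among the members. The table gives these as hairpin positions, and the exon or intron they fall in was not analysed here.

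Raw miRNA values summed to 1704166, 1969377 and 1438548 at 0 d, 2231391, 3019353 and 2809503 at 3 d, 3144661, 4673382 and 4121834 at 6 d, with 3265424, 2964791 and 3374856 at 9 d. The 0 d libraries were thus the shallowest, and 0 d replicate 3 the shallowest of them. The members took 4.33, 3.74 and 1.999% of the raw total at 0 d, 2.91, 2.92 and 2.53% at 3 d, 4.19, 4.46 and 4.32% at 6 d, with 4.17, 4.60 and 3.92% at 9 d. Of the 3 libraries at 0 d, replicate 3 was the lowest for 13 of the 13 members with distinct values that were read in all 12 libraries, so the main results against 0 d are also given without it. The part of depth in this was not tested. Levels below are the deposited normalized values, which equal the raw value times 1 factor per library (0.545 to 2.195), and statements on overlap between days hold for these values unless a share of the raw total is named. Low values are thinned in the table: rounded raw values of 1 to 4 numbered 497 and values of 5 alone 613, so a miRNA at 0 is described as listed at 0 and no upper limit is set on it.

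The cells were checked against marker mRNAs, measured as FPKM (fragments scaled by transcript length and library size) in libraries of long RNA of the same days. An mRNA or miRNA counts as called, and is said to rise or fall, if its log2 fold change lies beyond 1 in either direction with an adjusted p-value (over all features tested) below 0.05. Of all 15401 mRNAs tested, 23.3% were called at 3 d, 11.4% at 6 d and 10.9% at 9 d, each against 0 d, and 19.1% at 6 d against 3 d. Summed over 10 adipocyte markers, the median library held 186.7, 859.9, 348.1 and 316.3 FPKM on the 4 days in turn. Of these 10, 5 rose at 3 d and 1 fell, and 5 rose at both 6 and 9 d with none falling. PLIN2, a coat protein of lipid droplets, was the most abundant (mean 315.1 FPKM), FABP4, a fatty acid carrier, went from 3.30 ± 0.255 FPKM to 91.1 ± 4.42 at 3 d, 26.4 ± 1.95 at 6 d and 9.07 ± 1.61 at 9 d (SD, n = 3), and the adipokine ADIPOQ stayed at or under 1.64 FPKM in every library. Preadipocyte and fibroblast markers summed to 3218, 2013, 3381 and 3581 FPKM (medians), with collagen COL1A1 on top (mean 2608) and the preadipocyte marker DLK1 at a mean under 0.1. They did not move as 1 group: of 5 tested, 2 rose and 2 fell at 3 d, 1 rose and 2 fell at 6 d, and 2 fell at 9 d. At 3 d COL1A1 went from 3018 ± 111 to 940.7 ± 57.1 FPKM and the growth factor receptor PDGFRA from 159.6 ± 10.5 to 929.5 ± 31.5 (SD, n = 3).

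Skeletal muscle markers were present too. The 7 analysed (PAX7 was not analysed here) summed to 864.3, 292.3, 397.6 and 323.2 FPKM (medians of the days in turn), with the muscle filament gene DES the most abundant (mean 263.0). MYOD1, a transcription factor that defines myoblasts, had means of 267.8 ± 32.5, 109.2 ± 2.88, 47.7 ± 12.2 and 54.6 ± 10.5 FPKM (SD, n = 3). Muscle markers fell at 3, 6 and 9 d for 6, 5 and 6 of 7, so the label of preadipocytes does not cover all that these cells expressed. Their part in the miRNA results was not tested, and in bulk RNA fewer cells of a type and less RNA per cell cannot be told apart. Leukocyte markers, of interest because miR-146 and miR-155 are abundant in those cells, summed to 1.18, 5.76, 3.37 and 3.99 FPKM with CD14 on top (mean 1.64), and PTPRC and ITGAM were at 0 in all libraries. Of the 4 tested, 3 rose at 3 d (CD14, CD79A and CSF1R), 1 at 6 d and 2 at 9 d, all at low levels, and their part in the miRNA results was not tested either. Endothelial markers summed to 3.00, 3.33, 2.77 and 3.02 FPKM with VWF on top (mean 2.06), and CDH5, PECAM1 and KDR had means under 0.1.

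Of the 23 names, 21 reached a raw total of 10 over the 12 libraries and were tested with all 1081 such miRNAs. The other 2, cgr-miR-222-3p_L+2R-2 and chi-miR-146b-3p, had totals of 5 and 6, each from 1 library. By mean normalized value miR-222 ranked 14, 32, 14 and 16 among all names on the 4 days in turn. Within the members the order at 0 d was miR-222, miR-221, miR-181a, then miR-155 and miR-181b, whose libraries overlapped, and then miR-181c, which overlapped with both. At 3 d miR-181a (23091 to 23626) lay above miR-222 (17839 to 22509) in each library, and miR-181b (3653 to 4565) above miR-155 (2567 to 3631). At 6 d miR-222 led again, followed by miR-181a and miR-221, and at 9 d the libraries of miR-222 (41355 to 59602) and miR-181a (30186 to 49090) overlapped. miR-155 and miR-181b overlapped at 6 and 9 d as well. This order counts miR-181a and miR-181b on 1 of the 2 lines that each has in the table, and it changes when both are added, as given with miR-181a. The rank of miR-222 among all names changes too, to 18, 35, 19 and 19 when names on several lines are added over them.

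miR-222, which acts on cell cycle inhibitors in other cells, was lowest at 3 d and stood high at 6 and 9 d. Its normalized values were 55075, 45404 and 31660 at 0 d, 22509, 21533 and 17839 at 3 d, 48137, 50840 and 52154 at 6 d, with 57787, 59602 and 41355 at 9 d. The 3 libraries at 3 d were the lowest of the 12 and overlapped with no other day. Means were 44046 ± 11766, 20627 ± 2463, 50377 ± 2048 and 52914 ± 10052 (SD, n = 3). From 3 to 6 d miR-222 rose by a log2 fold change of 1.32 ± 0.23 (SE; adjusted p = 0.00215, edgeR quasi-likelihood test), with all 3 libraries at 6 d above all 3 at 3 d. This was the only member called of 21 in that comparison, beside 43 of all 1081 miRNAs (3.98%), and it was called under each of the 20 alternatives (1.23 to 1.39). At 3 d against 0 d the log2 fold change of -0.98 ± 0.22 had an adjusted p of 0.0133 and lay just within the fold minimum, so it was not called. Without 0 d replicate 3 it was -1.19 (adjusted p = 0.000143) and was called, as it was under 8 of the 20 alternatives, which gave -1.19 to -0.77. Against 0 d, the values at 6 d (0.35, adjusted p = 0.323) and 9 d (0.44, adjusted p = 0.179) were not called, and without 0 d replicate 3 they were 0.14 and 0.19.

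miR-221, the seed partner of miR-222, varied less. Its values were 26132, 21015 and 18616 at 0 d, 15478, 15007 and 15175 at 3 d, 19662, 18828 and 19317 at 6 d, with 20837, 23043 and 22118 at 9 d. Here too the 3 d libraries were the lowest of the 12, but as a share of the raw total 0 d replicate 3 (0.5896%) lay among them (0.5841 to 0.6132%). The log2 fold change was -0.40 ± 0.17 at 3 d against 0 d (SE; adjusted p = 0.181, edgeR) and 0.37 ± 0.17 at 6 d against 3 d (adjusted p = 0.272), and neither was called. Its other arm, hsa-miR-221-5p_R+4, had means of 762 ± 519, 519 ± 121, 751 ± 168 and 1338 ± 308 (SD, n = 3), with 0 d replicate 3 at 167 and the other 0 d libraries at 998 and 1122. Its log2 fold changes differ with that library: -0.47 at 3 d and 0.94 at 9 d with it, -0.94 and 0.45 without it, and none was called. The 5p arm of miR-222, hsa-miR-222-5p_R-1, had a raw value of 10 in 6 d replicate 2 and was listed at 0 elsewhere.

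The long RNA libraries hold an entry named after both hairpins (MIR222;MIR221), which was picked out after its values were seen. It stood at 22.86, 28.70 and 20.57 FPKM at 0 d, 4.35, 0.63 and 2.75 at 3 d, 12.64, 12.98 and 13.12 at 6 d, with 39.24, 39.26 and 33.54 at 9 d. No library of 1 day overlapped with another day, 3 d being lowest and 9 d highest. On log2(FPKM + 0.1), MIR222;MIR221 fell by 3.51 ± 0.52 at 3 d against 0 d (SE; adjusted p = 0.000234, limma) and rose by 2.63 ± 0.52 from 3 to 6 d (adjusted p = 0.00184). Both calls stood under each of the 19 alternatives, but the sizes varied. The log2 change was -4.05 to -2.75 at 3 d against 0 d and 1.87 to 3.17 from 3 to 6 d. At 6 and 9 d against 0 d the log2 changes were -0.88 (adjusted p = 0.229) and 0.64 (adjusted p = 0.371) and were not called. How far the entry's RNA sets the levels of the mature miRNAs was not tested.

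**Figure D1:**
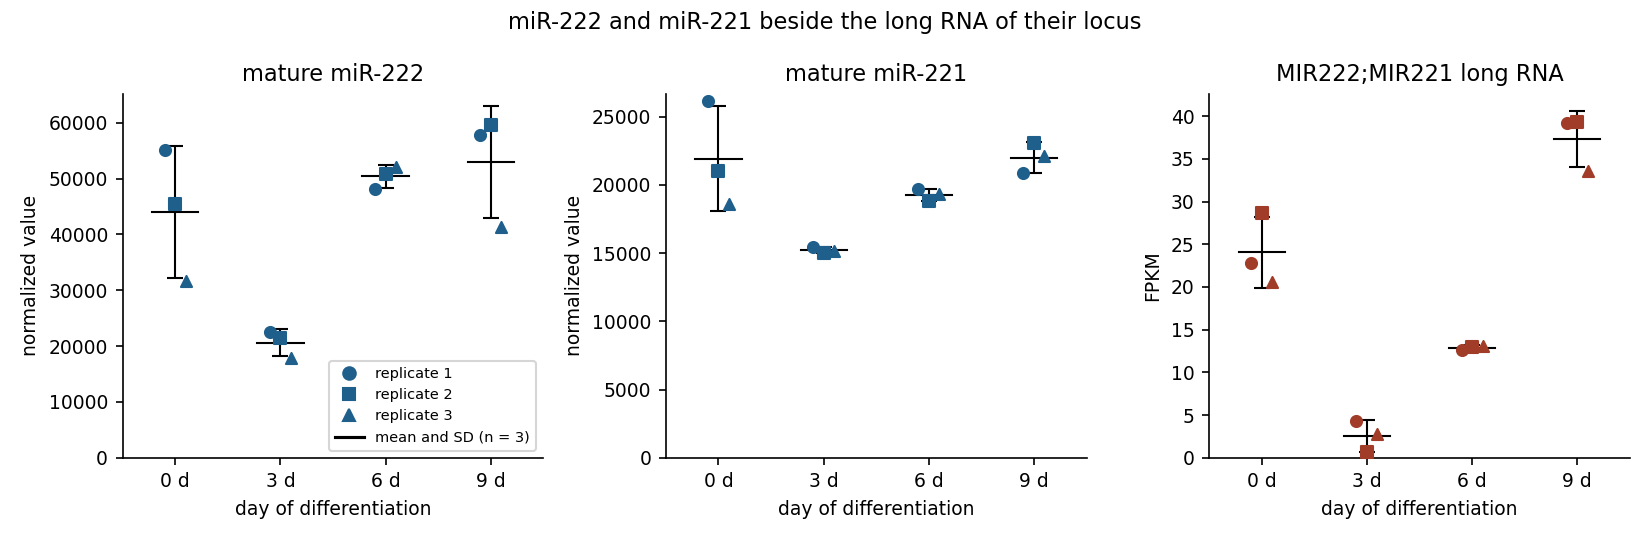
Values of mature miR-222 and miR-221 (deposited normalized value) and of the long RNA entry MIR222;MIR221 (FPKM) on each day, with 1 point per library and the mean and SD of 3 libraries. The 3 d libraries are the lowest in each panel: 17839 to 22509 for miR-222, 15007 to 15478 for miR-221 and 0.63 to 4.35 FPKM for the entry.

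The ratio of the 2 miRNAs within a library needs no scaling between libraries. The log2 ratio of miR-222 to miR-221 was 1.08, 1.11 and 0.77 at 0 d, 0.54, 0.52 and 0.23 at 3 d, 1.29, 1.43 and 1.43 at 6 d, with 1.47, 1.37 and 0.90 at 9 d. All 3 d libraries lay below all others. Between the means of 6 and 3 d (1.39 and 0.43) the difference was 0.95, or 1.94-fold. The days differed in an exact permutation test over all 15400 ways to divide 12 libraries into 4 days of 3 (one-sided on the spread between day means, p = 0.00247, adjusted p = 0.0074 over the 3 ratios of neighbouring hairpins).

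**Figure D2:**
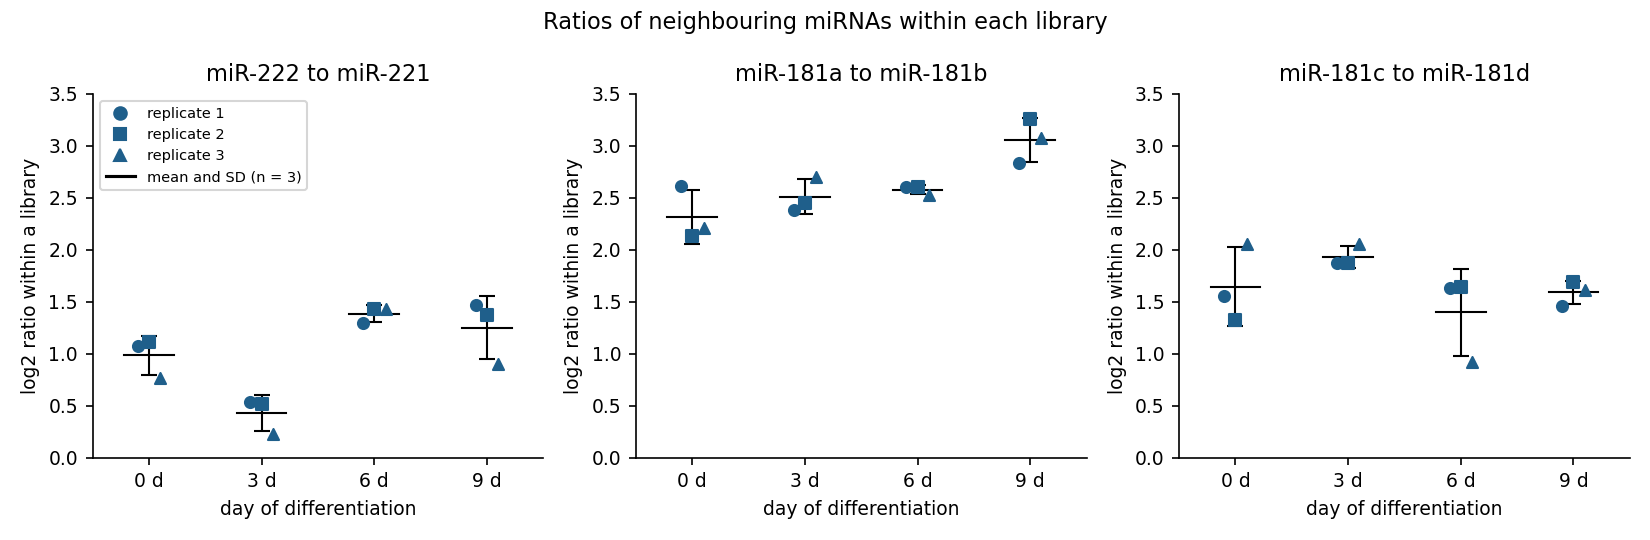
Log2 ratio of neighbouring miRNAs within each library on each day, with 1 point per library and the mean and SD of 3 libraries. For miR-222 to miR-221 the 3 d libraries (0.23 to 0.54) lie below all others, for miR-181a to miR-181b the mean is highest at 9 d (3.05), and for miR-181c to miR-181d the day means lie between 1.40 and 1.93.

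miR-181a was the most abundant of its family and rose against 0 d on each later day. Its normalized values were 16732, 13198 and 7281 at 0 d, 23091, 23626 and 23141 at 3 d, 27119, 29042 and 25225 at 6 d, with 30186, 49090 and 37126 at 9 d. Each day's lowest library lay above the highest library of the day before, but as a share of the raw total 9 d (1.022 to 1.50%) overlapped with 6 d (0.9879 to 1.14%). Means were 12404 ± 4776, 23286 ± 295, 27129 ± 1908 and 38801 ± 9563 (SD, n = 3). miR-181a rose by a log2 fold change of 1.02 ± 0.27 at 3 d (SE; adjusted p = 0.0271, edgeR), 1.27 ± 0.27 at 6 d (adjusted p = 0.00489) and 1.80 ± 0.27 at 9 d (adjusted p = 0.000324), each against 0 d and so against the same 3 libraries. The call at 9 d stood under each of the 20 alternatives (1.40 to 2.07, adjusted p from 1.5e-08 to 0.0116). The call at 3 d was lost under 11 of 20 (0.73 to 1.31), and without 0 d replicate 3 the values were 0.73 at 3 d, 1.00 at 6 d (neither called) and 1.49 at 9 d (adjusted p = 2.45e-05, called).

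Levels of miR-181a and miR-181b need care, since the table holds each on 2 lines, one for each hairpin, with the same values. Among raw values over 20 of names on 2 lines, 44.6% ended in a fraction of 0.5 (561 values), against 8.54% for names on 1 line (5834 values), and 6 of the 12 values of miR-181a did so. Added over both lines, miR-181a would stand at 24808, 46572, 54257 and 77602 (means). It would then overlap at 0 d (14561 to 33465) with miR-221 (18616 to 26132) and miR-222 (31660 to 55075), and with miR-222 at 6 d (50451 to 58083 against 48137 to 52154), and lie above miR-222 at 9 d (60373 to 98181). miR-181b would stand at 5140, 8434, 9326 and 9480, above miR-155 at 6 d (9011 to 9796) and 9 d (8690 to 10660). Their fold changes do not depend on this.

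miR-181b differs from miR-181a at 3 bases outside the seed. It stood at 2901, 3185 and 1624 at 0 d, 4565, 4434 and 3653 at 3 d, 4585, 4898 and 4506 at 6 d, with 4345, 5330 and 4545 at 9 d. All libraries at 3, 6 and 9 d lay above all 3 at 0 d and overlapped with each other. miR-181b rose by 1.00 ± 0.24 at 6 d (SE; adjusted p = 0.0114, edgeR) and 1.05 ± 0.24 at 9 d (adjusted p = 0.00603) against 0 d. At 3 d the log2 fold change was 0.83 (adjusted p = 0.0469), under the fold minimum. Both calls sat at the fold minimum and were lost under 10 of 20 alternatives at 6 d (0.75 to 1.22) and 9 of 20 at 9 d (0.65 to 1.27), the fit without 0 d replicate 3 (0.75 on both days) among them. The log2 ratio of miR-181a to miR-181b had means of 2.32, 2.51, 2.58 and 3.05, a difference of 0.74 (1.67-fold) between 9 and 0 d, and the days differed in the exact permutation test (p = 0.00539, adjusted p = 0.00808).

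The 3p arms, which differ between the 2 hairpins of miR-181a, had unlike patterns. hsa-miR-181a-3p, from miR-181a-1, stood at 142, 170 and 59 at 0 d, 216, 257 and 179 at 3 d, 333, 362 and 435 at 6 d, with 753, 857 and 807 at 9 d. hsa-miR-181a-2-3p_1ss6TC, from miR-181a-2, stood at 683, 704 and 630 at 0 d, 697, 637 and 670 at 3 d, 426, 483 and 561 at 6 d, with 642, 627 and 590 at 9 d. The first lay higher on each day than on the one before, while the 6 d libraries of the second lay below those of the other days. As shares of the raw total the 0 and 3 d libraries of the first met (0.006906% at most and 0.006905% at least), and the 6 d libraries of the second overlapped with those of 0 and 9 d. hsa-miR-181a-3p rose by 1.73 ± 0.32 at 6 d (SE; adjusted p = 0.0018, edgeR) and 2.85 ± 0.33 at 9 d (adjusted p = 2.40e-05) against 0 d, while 0.90 at 3 d (adjusted p = 0.107) was not called. Its value at 9 d was called under each of the 20 alternatives (2.44 to 3.17), and without 0 d replicate 3 it was 1.41 at 6 d and 2.48 at 9 d, both called. hsa-miR-181a-2-3p_1ss6TC was not called, with -0.30 at 6 d (adjusted p = 0.29) and 0.07 at 9 d (adjusted p = 0.875).

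The log2 ratio of these 3p arms was formed after their patterns had been seen, so no p-value is given for it. It was -2.27, -2.06 and -3.41 at 0 d, -1.69, -1.31 and -1.90 at 3 d, -0.36, -0.42 and -0.37 at 6 d, with 0.23, 0.45 and 0.45 at 9 d. No library overlapped with another day. Between 0 and 9 d the difference of means was 2.96, or 7.76-fold. Without 0 d replicate 3 the difference was 2.54.

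**Figure D3:**
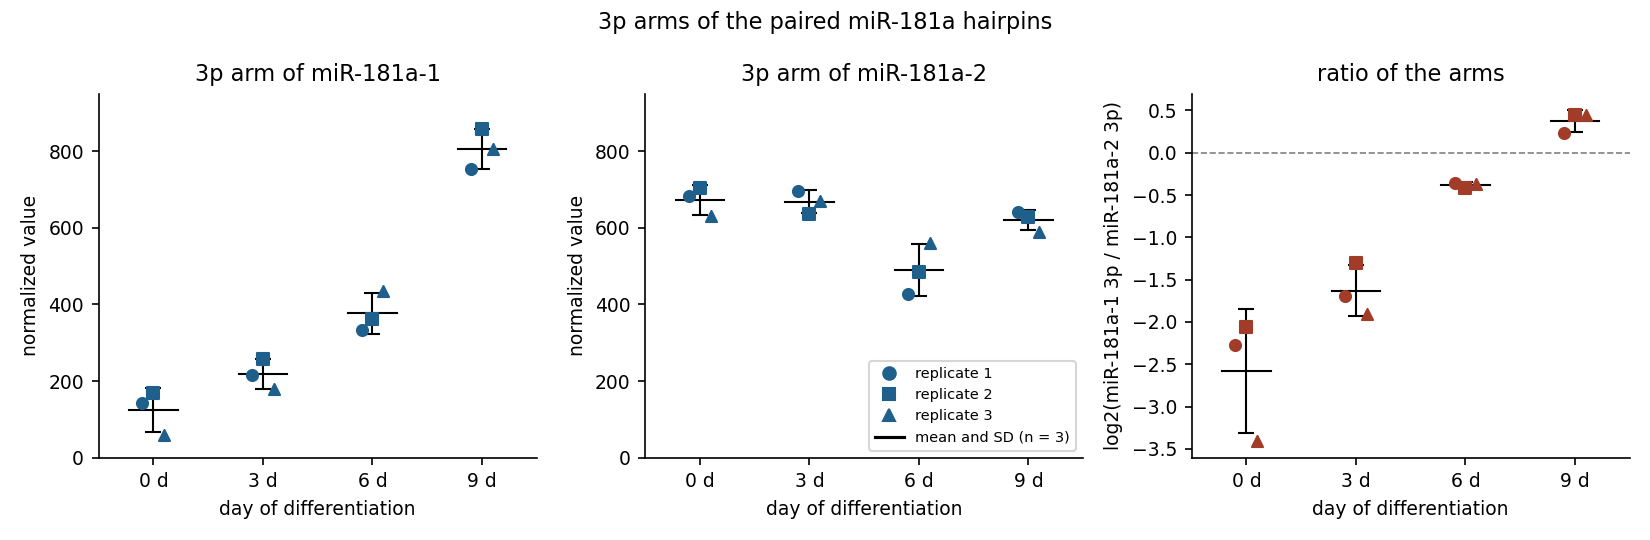
Normalized values of the 3p arms from the hairpins miR-181a-1 and miR-181a-2, and their log2 ratio, on each day, with 1 point per library and the mean and SD of 3 libraries. The arm from miR-181a-1 goes from 59 to 170 at 0 d to 753 to 857 at 9 d, and that from miR-181a-2 stays between 426 and 704.

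Names of opossum origin describe forms of miR-181 that are longer at the 3′ end. mdo-miR-181a-5p_R+3_1 and mdo-miR-181a-5p_R+3_2 held identical values, with means of 788 ± 455, 756 ± 19.7, 977 ± 30.4 and 1439 ± 595 (SD, n = 3). mdo-miR-181b-5p_R+3_1, mdo-miR-181b-5p_R+3_2 and mdo-miR-181b-5p_R+3_3 were also identical to each other, with means of 28.7 ± 13.6, 24.0 ± 5.68, 41.1 ± 11.6 and 32.4 ± 8.86. None was called. At 9 d the miR-181a form had a log2 fold change of 1.00 (adjusted p = 0.0856, edgeR), which was called under 2 alternatives, the replicate block and the fit without 0 d replicate 1, and was 0.58 without 0 d replicate 3. With these repeats the 23 names hold 20 distinct sets of values.

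miR-181c and miR-181d, which share a hairpin pair and the family seed, lay lower. miR-181c had means of 1422 ± 490, 1283 ± 152, 1452 ± 306 and 1626 ± 303 (SD, n = 3), and its days overlapped. miR-181d stood at 581, 680 and 206 at 0 d, 379, 371 and 267 at 3 d, 517, 529 and 582 at 6 d, with 473, 591 and 545 at 9 d, and the 3 d libraries lay below those of 6 and 9 d. Neither was called in any comparison. miR-181d at 3 d against 0 d was -0.44 with all libraries and -0.81 without 0 d replicate 3 (adjusted p = 0.00893, edgeR), under the fold minimum. Their log2 ratio had means of 1.65, 1.93, 1.40 and 1.59, and the exact permutation test gave p = 0.237. Raw values of miR-181d carry fractions although the name has 1 line (389.67 and 545.33 in 0 d replicates 1 and 2). Those of miR-181b do too (1944.17 and 2555.33 in the same libraries). Whether reads were shared between these 2 names, and how this bears on their levels and ratios, was not tested. The 3p arm, chi-miR-181c-3p, had means of 92.4 ± 56.7, 47.1 ± 12.7, 110 ± 21.4 and 191 ± 20.8, and its log2 fold change at 9 d was 1.17 ± 0.42 (SE; adjusted p = 0.0551, edgeR), not called. It was called there under 4 of 20 alternatives (DESeq2, no filter, the replicate block and without 0 d replicate 2), and was 0.74 without 0 d replicate 3. Without that library it was called at 3 d against 0 d (-1.30, adjusted p = 0.00669) and at 6 d against 3 d (1.27, adjusted p = 0.00325), where all libraries together gave -0.90 (adjusted p = 0.246) and 1.25 (adjusted p = 0.125).

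miR-155, known for its part in lymphocytes and macrophages, was well read in these cells. It stood at 3831, 3583 and 1626 at 0 d, 3631, 3496 and 2567 at 3 d, 4802, 5146 and 4437 at 6 d, with 4473, 5468 and 5336 at 9 d. All libraries at 6 and 9 d lay above all of those at 0 and 3 d. The log2 fold change was 0.81 at 6 d (adjusted p = 0.0702, edgeR) and 0.92 ± 0.29 at 9 d (SE; adjusted p = 0.0320), the latter under the fold minimum, and neither was called. Both sit near the threshold and differ with the 0 d libraries used: without 0 d replicate 3 they were 0.51 and 0.57, while the value at 6 d was called without 0 d replicate 1 and that at 9 d under 3 of 20 alternatives (the replicate block and without 0 d replicate 1 or 2). chi-miR-155-5p_L+2, a form with a shifted seed, had raw values of 5 to 7 in 4 libraries and was listed at 0 in the others.

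miR-146b and miR-146a, which act on the adaptors TRAF6 and IRAK1 in other cells, had low raw values, at most 29 and 24 in any library. Raw values of miR-146b were 0, 6 and 0 at 0 d, 8, 0 and 0 at 3 d, 8, 14 and 22 at 6 d, with 17, 13 and 29 at 9 d. It was read in all libraries at 6 and 9 d and in 2 of 6 before. The fitted log2 fold change of 2.85 ± 1.43 at 9 d against 0 d (SE; adjusted p = 0.174, edgeR) was not called. It was called under 2 of 19 alternatives, limma on normalized values and the fit without 0 d replicate 2, and ranged from 2.27 to 7.41. bta-miR-146a_R-2_1ss18AG had raw values of 18 in 0 d replicate 3, 6 in 3 d replicate 1 and 24 in 6 d replicate 3, and dno-miR-146a-5p 11 and 9 in the first and last of these. Both were listed at 0 in every other library, all 9 d libraries among them, so no fold change is given.

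**Figure D4:**
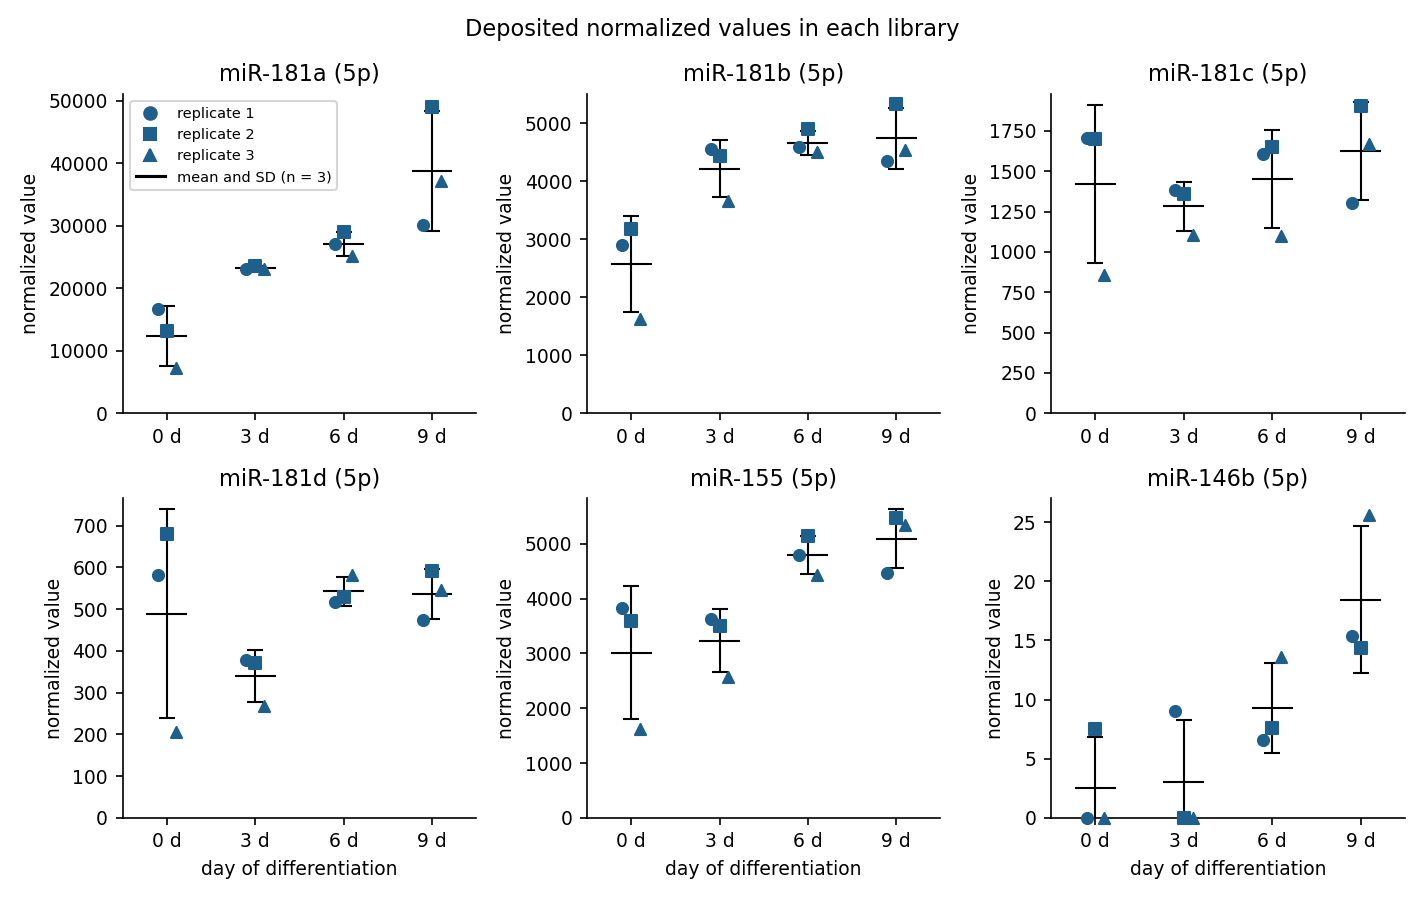
Deposited normalized values of miR-181a, miR-181b, miR-181c, miR-181d, miR-155 and miR-146b on each day, with 1 point per library and the mean and SD of 3 libraries. miR-181a goes from 7281 to 16732 at 0 d to 30186 to 49090 at 9 d, while the days of miR-181c overlap.

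In all, 1 of 21 members was called at 3 d against 0 d (miR-181a, up), beside 6.38% of all 1081 miRNAs. At 6 d 3 of 21 were called (miR-181a, miR-181b and hsa-miR-181a-3p, all up), beside 11.3%, and at 9 d the same 3, all up, beside 18.3%. From 3 to 6 d 1 of 21 was called (miR-222, up), beside 3.98%. In each of the 4 comparisons these counts lie close to the share of all miRNAs. Nothing particular to the members as a group can be read from them. Among all miRNAs 42 rose and 27 fell at 3 d, 77 rose and 45 fell at 6 d, and 112 rose and 86 fell at 9 d. With DESeq2 the split was 43 and 44, 79 and 87, and 105 and 136, and with library totals alone it was 67 and 144 at 9 d. Library totals alone moved the median miRNA at 9 d by -0.196, and relative to that median miR-181a stood at 1.60, miR-181b at 0.84 and hsa-miR-181a-3p at 2.64. DESeq2 moved the median at 6 d by -0.151, from 0.25 to 0.10, and relative to the median miR-181a stood at 1.03 in edgeR and 1.04 in DESeq2, miR-181b at 0.76 and 0.77, and hsa-miR-181a-3p at 1.48 and 1.50. The rise of miR-222 from 3 to 6 d was 1.24 relative to the median in all 3 scalings.

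**Figure D5:**
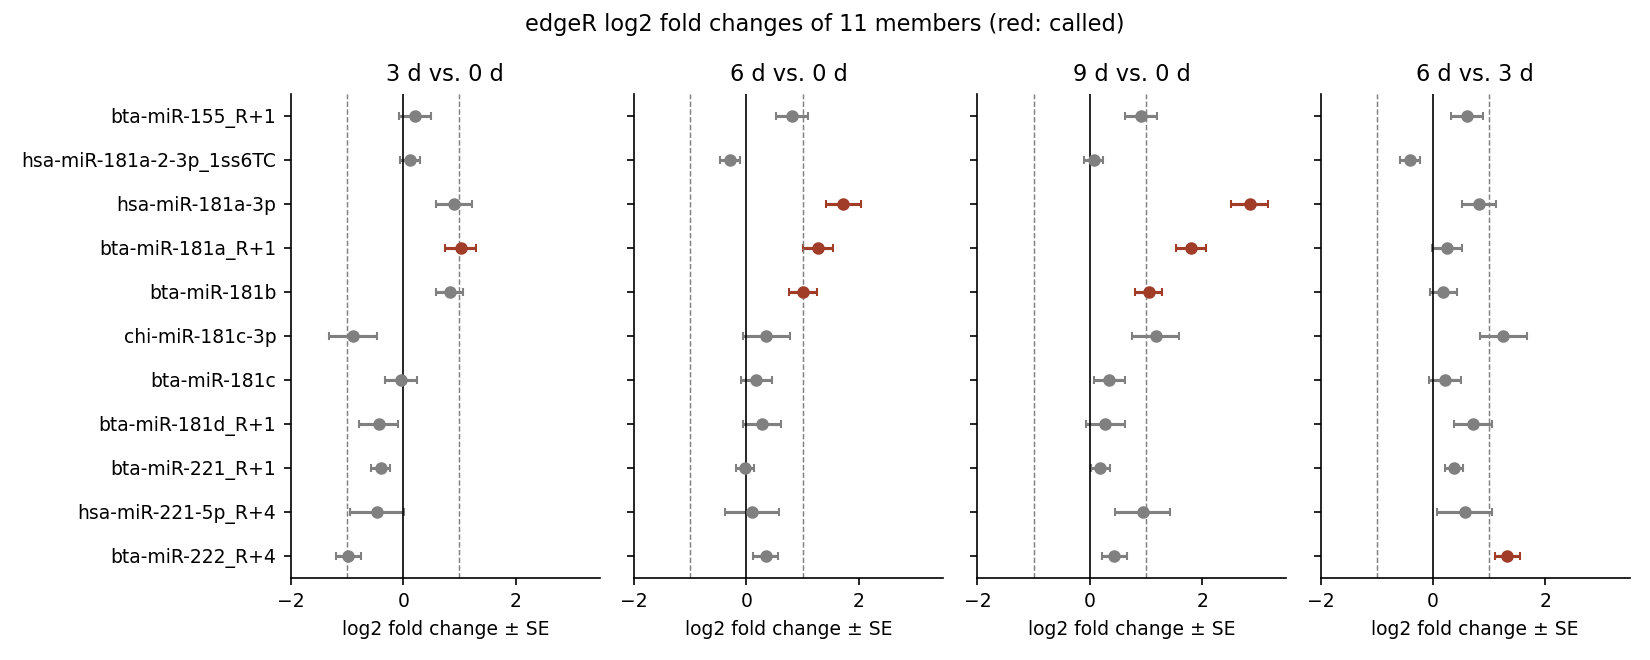
Log2 fold change (edgeR, with SE) of 11 members in each of the 4 comparisons, with called members in red. miR-181a is called at 3, 6 and 9 d against 0 d (1.02, 1.27 and 1.80) and miR-222 at 6 d against 3 d (1.32).

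Other miRNAs most like 4 of the members were taken by Pearson r of log2 values over the 12 libraries, among 433 with a raw value of at least 10 in every library, as a description with no test. Nearest to miR-222 were bta-miR-27a-5p (r = 0.889), bta-miR-23b-3p (0.850) and bta-mir-7862-p5 (0.847), and nearest to miR-221 bta-miR-27a-5p (0.840), mdo-miR-26-5p_R+3 (0.834) and hsa-miR-24-2-5p_L+1R+1 (0.764). bta-miR-27a-5p had day means of 437.6, 49.3, 404.8 and 351.6 and was, like miR-222, lowest at 3 d. Nearest to miR-181a were bta-miR-99a-3p_R+4 (0.961), chi-let-7i-3p (0.946) and bta-miR-99a-5p_R+1 (0.944), and nearest to miR-155 bta-miR-497 (0.952), bta-miR-494_R+1 (0.950) and bta-miR-145 (0.941). The 12 points share days and library depth, which such an r includes.

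The mRNAs that earlier work describes as targets of the members were listed by miRNA, 69 genes in all, of which 61 had a mean of at least 0.1 FPKM. At 3 d 23 of 61 were called (6 up, 17 down), at 6 d 9 (1 up, 8 down) and at 9 d 12 (3 up, 9 down), each against 0 d, and 18 at 6 d against 3 d (7 up, 11 down). The shares of all mRNAs called were 23.3, 11.4, 10.9 and 19.1%, and these leaned down against 0 d as well: 1241 rose and 2344 fell at 3 d, 522 rose and 1227 fell at 6 d, and 525 rose and 1150 fell at 9 d, with 1517 up and 1422 down from 3 to 6 d. The median log2 changes of the targets were -0.36, -0.31, -0.17 and 0.13, and those of all mRNAs -0.06, -0.15, -0.19 and -0.10. Whether any of these mRNAs is bound by a member in these cells was not tested. Rescaling FPKM by the median ratio between libraries moved the median of all mRNAs by 0.145 at 6 d and 0.173 at 9 d, and with it the split of calls. Of all mRNAs 1407 then rose and 2129 fell at 3 d, 640 rose and 968 fell at 6 d, and 682 rose and 807 fell at 9 d. Of the targets 9 rose and 16 fell, 2 rose and 6 fell, and 3 rose and 5 fell on these days, so most of the lean at 9 d depends on the scaling. Relative to the median of all mRNAs, the changes named below were -2.66 for CDKN1C, -1.99 for BMF and -1.61 for CARD10 at 6 d, and 1.83 for DUSP5, 2.08 for PTPN22, -1.93 for AGTR1 and 5.25 for VCAM1 at 9 d.

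Of 15 tested targets of miR-221 and miR-222, 7 were called at 3 d (2 up, 5 down), 5 at 6 d (1 up, 4 down), 5 at 9 d (1 up, 4 down) and 5 at 6 d against 3 d (2 up, 3 down). TIMP3, an inhibitor of matrix metalloproteinases that is also on the miR-181 list, had means of 126.6 ± 19.0, 2.59 ± 0.248, 65.4 ± 31.9 and 52.7 ± 6.54 FPKM (SD, n = 3). It fell by 5.55 ± 0.35 on the log2 scale at 3 d (SE; adjusted p = 4.49e-07, limma) and rose by 4.46 ± 0.35 from 3 to 6 d (adjusted p = 3.17e-06). DDIT4, an inhibitor of mTORC1 signalling, rose from 113.5 ± 8.0 FPKM at 0 d to 1068 ± 27.2 at 3 d (log2 change 3.24, adjusted p = 3.69e-10), with 709.1 ± 40.6 at 6 d and 701.8 ± 58.2 at 9 d. PIK3R1, a regulatory subunit of PI3 kinase, rose from 24.7 ± 0.894 to 117 ± 16.9 FPKM at 3 d (2.23, adjusted p = 1.24e-07) and stood at 26.5 ± 0.635 at 6 d. CDKN1C, a cell cycle inhibitor, went from 37.1 ± 3.79 FPKM to 14.4 ± 1.22, 5.18 ± 0.238 and 7.36 ± 0.883 (-2.81 at 6 d, adjusted p = 5.79e-08). CDKN1B, another cell cycle inhibitor on the list, was highest at 3 d, with means of 7.47 ± 0.495, 14.9 ± 1.51, 6.89 ± 0.136 and 6.66 ± 0.607 FPKM. Its log2 change of 0.99 at 3 d (adjusted p = 1.15e-05, limma) lay just under the fold minimum and was not called. BMF, which promotes cell death, had means of 38.6 ± 1.84, 12.7 ± 3.80, 8.75 ± 1.41 and 11.5 ± 0.844 FPKM (-2.14 at 6 d, adjusted p = 2.64e-05).

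Of 18 tested targets of miR-181, 5 fell at 3 d, 2 fell at 6 d, 5 were called at 9 d (2 up, 3 down) and 2 at 6 d against 3 d (1 up, 1 down). DUSP5, a phosphatase that acts on ERK, stood at 34.9 ± 2.27, 30.6 ± 3.28, 39.9 ± 5.18 and 109.2 ± 13.8 FPKM (SD, n = 3) and rose at 9 d by 1.64 ± 0.12 (SE; adjusted p = 5.87e-06, limma). BCL2, which protects from cell death, fell at 3 d from 0.62 ± 0.339 to 0.15 ± 0.0819 FPKM (-1.47, adjusted p = 0.00524). PTPN22, a phosphatase of lymphocyte signalling, rose at 9 d from 0.22 ± 0.14 to 1.01 ± 0.147 FPKM (1.89, adjusted p = 0.0117) and fell from 3 to 6 d (-1.44, adjusted p = 0.0309). The last 2 are low, and with a pseudocount of 1 in place of 0.1 their calls were lost. For PTPN22 the call at 9 d was lost under 2 of 18 alternatives and that from 3 to 6 d under 6 of 18, among them the fits without 3 d replicate 1 or 2 and without 6 d replicate 3.

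Of 15 tested targets of miR-146, 4 were called at 3 d (1 up, 3 down), 2 fell at 6 d, 1 fell at 9 d and 5 were called at 6 d against 3 d (2 up, 3 down). IRAK2, a kinase of interleukin-1 receptor signalling, stood at 4.55 ± 1.56, 22.3 ± 1.30, 3.57 ± 0.683 and 2.17 ± 0.653 FPKM (SD, n = 3), a rise of 2.32 at 3 d (adjusted p = 2.67e-05, limma) and a fall from 3 to 6 d (-2.63, adjusted p = 1.41e-05). IRF5, an interferon regulatory factor, went the other way, at 7.34 ± 1.01, 1.67 ± 0.377, 5.84 ± 0.376 and 10.0 ± 0.773 (-2.08 at 3 d, adjusted p = 1.37e-06, and 1.77 from 3 to 6 d). The receptor NOTCH1 fell from 18.2 ± 0.831 FPKM at 0 d to 5.50 ± 0.262 at 3 d (-1.71, adjusted p = 1.94e-08) and rose from there to 12.1 ± 0.335 at 6 d (1.13, adjusted p = 5.83e-07), with 17.3 ± 1.11 at 9 d. CARD10, a scaffold of NF-κB signalling, fell at 6 d (-1.76, adjusted p = 0.00213), from 188.0 ± 17.8 to 55.3 ± 4.08 FPKM.

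Of 17 tested targets of miR-155, 8 were called at 3 d (3 up, 5 down), 1 fell at 6 d, 2 fell at 9 d and 7 were called at 6 d against 3 d (3 up, 4 down). BACH1, a repressor of haem oxygenase, stood at 262.7 ± 14.6, 65.4 ± 6.32, 197.1 ± 48.1 and 205.2 ± 54.5 FPKM (SD, n = 3), a fall at 3 d (-2.01, adjusted p = 3.13e-05, limma) and a rise from 3 to 6 d (1.56, adjusted p = 0.000226). TP53INP1, a p53 target, at 125.4 ± 0.549 FPKM at 0 d, rose from 66.6 ± 3.36 at 3 d to 179.3 ± 1.09 at 6 d (1.43, adjusted p = 3.36e-07). The GTPase RHOA fell at 3 d (-1.53, adjusted p = 0.00426), from 1194 ± 75.7 to 442.5 ± 178 FPKM, and the angiotensin receptor AGTR1 fell at 9 d (-2.13, adjusted p = 3.93e-05), from 15.0 ± 1.35 to 3.45 ± 1.02. CSF1R, a receptor of macrophages, rose at 3 d from 0.33 ± 0.154 to 0.87 ± 0.0889 FPKM (1.23, adjusted p = 0.00127), a call that was lost with a pseudocount of 1 and without 0 d replicate 3.

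Of 17 tested genes of the NF-κB pathway, in which miR-146 and miR-155 are known to act, 6 were called at 3 d (3 up, 3 down), 4 at 6 d (1 up, 3 down), 3 at 9 d (2 up, 1 down) and 3 fell from 3 to 6 d. The inhibitors TNFAIP3 and NFKBIA were high at 3 d only: TNFAIP3 stood at 4.20 ± 0.616, 34.6 ± 3.79, 5.49 ± 0.486 and 6.65 ± 0.793 FPKM and NFKBIA at 1.53 ± 0.0751, 10.3 ± 0.999, 2.66 ± 0.229 and 2.14 ± 0.282 (SD, n = 3). TNFAIP3 rose by 3.02 at 3 d (adjusted p = 4.24e-08, limma) and NFKBIA by 2.67 (adjusted p = 3.23e-08), and from 3 to 6 d their changes were -2.63 and -1.91. The chemokine CXCL8, at 2.72 ± 0.362 FPKM at 0 d, fell from 5.44 ± 0.182 at 3 d to 0.467 ± 0.0551 FPKM at 6 d (-3.29, adjusted p = 4.10e-08). VCAM1, an adhesion molecule (its entry is merged with LOC534578), stood at 0.45 ± 0.0624 FPKM at 0 d and rose to 18.2 ± 1.36 at 9 d (5.06, adjusted p = 1.57e-07). Of 9 genes of miRNA processing and loading, among them DROSHA, DICER1 and AGO2, limma called 0 in each of the 4 comparisons, and in the alternatives at most 1 at 3 d against 0 d and 1 at 6 d against 3 d. At an unadjusted p under 0.05 (limma) there were 2, 3 and 5 at 3, 6 and 9 d against 0 d, and 5 at 6 d against 3 d. Of all 15401 mRNAs, 8818, 6644, 6980 and 8528 lay under it in the same comparisons. Those at 3 d, AGO4 (adjusted p = 0.00322, limma) and TARBP2 (0.000825), missed only the fold minimum. So did those at 6 d, AGO2 (adjusted p = 0.000167), DGCR8 (0.00384) and TARBP2 (0.0419). No other tool was run on mRNAs.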

How the data were processed

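Small and long RNA was measured at 0, 3, 6 and 9 d (3 libraries each), grouped by the day in the labels. The raw miRNA table that the authors deposited holds estimated counts: reads were mapped to precursors of miRBase 22.0, and many values carry fractions, by a rule the sources do not state. The deposited normalized values are a signal, the raw value times 1 factor per library. For mRNAs the authors deposited FPKM. The submitters' processing notes name Bowtie 0.12.2, HISAT2 2.0 and StringTie 1.3.0. Of the columns of values per sample in the tables used, 0 were left out, and the lncRNA and circRNA tables were not used. Names on several lines of the miRNA table (113) hold the same values on each and entered once.

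Raw values were rounded to whole numbers and tested with edgeR 4.0.16 (TMM, glmQLFit, glmQLFTest) for miRNAs with a total of at least 10. mRNAs with a mean FPKM of at least 0.1 were tested on log2(FPKM + 0.1), a scale that understates changes of low genes, with limma 3.58.1 (eBayes with a trend). All 12 libraries entered 1 fit with 4 day means, and p-values were adjusted by Benjamini-Hochberg over all features tested. Ratios within libraries (5p names of miR-181, or 3p names of miR-221 and miR-222, summed, with names of identical values entered once) were tested by exact permutation. R 4.3.3, DESeq2 1.42.0, Python 3.11.15, NumPy 2.4.6, pandas 2.3.3, SciPy 1.17.1 and Matplotlib 3.10.9 were used.

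Named were every member with a raw total of at least 10, for 4 miRNAs the 3 others with the highest r, and of each mRNA list up to 3 called genes with the largest rise and 3 with the largest fall whose libraries of the days compared do not overlap. CDKN1B and the genes of miRNA processing were added to these and do not enter the counts of alternatives for named mRNAs. The members and lists were chosen with earlier results of these data known. The alternatives were DESeq2, library totals without TMM, no filter or a total of at least 120, limma on log2(normalized + 1), a fit of only the 6 libraries compared, the replicate number as a block, no fold minimum, for mRNAs a pseudocount of 1 or 0.01, other filters and rescaled FPKM, and leaving out each library in turn. Counting names with identical values once in the fits, and the ratio of the miR-181a 3p arms, were added after seeing the data.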

Additional observations from a re-analysis of the deposited data

How the results depend on the processing

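Of 1636 values of member fold changes under alternatives, 1500 kept their direction and side of the threshold, 33 lost a call, 28 gained one, 75 changed sign with no call on either side, and 0 reversed a call. Of 604 such values for named mRNAs, 593 kept both and 11 lost a call. Members called at 3 d against 0 d numbered 1, with 3 when no fold minimum was set and 0 in a fit of only the 6 libraries compared. Single calls did not always name the same miRNA: miR-222 (down) took the place of miR-181a with DESeq2, limma, library totals, no filter, a total of at least 120, identical names counted once, and without 3 d replicate 1. The fit of 6 libraries also called 0 members at 6 d in place of 3, 2 at 6 d against 3 d in place of 1, 34 and 63 of all miRNAs at 3 and 6 d in place of 69 and 122, and 57 at 6 d against 3 d in place of 43. Without a filter 2 members were called at 6 d against 3 d. A pseudocount of 1 called 12 target genes at 3 d in place of 23, and 2184 of all 15401 mRNAs in place of 3585. The cause of these shifts was not tested.

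Leaving out 1 library at a time, the members called ranged from 0 to 3 for 3 d against 0 d, from 1 to 4 for 6 d, from 2 to 6 for 9 d, and from 1 to 2 between 3 and 6 d. All miRNAs called ranged from 47 to 80, 89 to 164, 154 to 223 and 29 to 58 in the same fits. The difference of the 3p arm ratio was 2.54 to 3.22. The highest member count at 9 d came without 0 d replicate 1 or 2.

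With the replicate number as a block (replicate block), 1, 3, 7 and 1 members were called in the 4 comparisons (at 9 d also miR-155, chi-miR-181c-3p and both mdo-miR-181a-5p names), and 69, 131, 198 and 46 of all miRNAs. Target genes called were 23, 10, 12 and 18, beside 3591, 1746, 1683 and 2933 of all 15401 mRNAs. The block cannot change differences of day means (0.95, 0.74 and 0.53 for the ratios of neighbours, 2.96 for the 3p arms), and the exact permutation p of the first 3 were 0.0104, 0.0243 and 0.312. Deviations of libraries with the same number had r of -0.38 to 0.59 for miRNAs and -0.08 to 0.09 for mRNAs, and 5 and 6 of 12 libraries were most like those of their own number, so the numbers were not taken as pairs. Depth was lowest at 0 d, and the members with raw values under 30 (miR-146a, miR-146b and the rare forms) allow no statement on change.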

Other observations

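The long RNA table holds 9 other entries named after hairpins of these miRNAs. None exceeded 0.36 FPKM in any library, against up to 39.26 for MIR222;MIR221. MIR181B-2 was above 0 in 12 of 12 libraries (0.02 to 0.32 FPKM), MIR181B-1 in 11 (up to 0.36) and MIR181A-1 in 9 (up to 0.25), while MIR146A, MIR146B and MIR181C were listed at 0 in all.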
